A study of Mus musculus with 13 samples.

Results

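Tissue differences without heme oxygenase 2 was followed in the 6 Hmox2-/- libraries of a series of 13: whole hearts of 3 mice (heart KO 1 to heart KO 3) and RNA of aortic endothelial cells (ECs) of 3 mice (EC KO 1 to EC KO 3). The members were the libraries whose labels give the knockout genotype. The other 7 libraries, 4 hearts (heart WT) and 3 aortic EC preparations (EC WT) of Hmox2+/+ littermates, entered only where the same tissue difference was set beside the knockout one. All mice were kept in room air with no other treatment, and each knockout animal carried the deletion of Hmox2. The sequenced mice were young by the study's account, and their strain background and sex were not given in the sources used here. Hearts were frozen whole, so their RNA came from all heart cells. EC RNA was collected with TRI Reagent and a Zymo kit and heart RNA with a Qiagen kit, so tissue and extraction kit cannot be told apart. Both were made into oligo-dT directional libraries. In such bulk RNA, fewer cells of a type and less RNA per cell cannot be told apart. The replicate numbers do not say which heart and which aorta came from the same mouse. Levels of a Y-linked gene, given below, settle this only in part. The p-values measure the spread among these libraries.

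Heme oxygenase 2 is the constitutive enzyme that opens the heme ring and releases carbon monoxide, iron and biliverdin, while its relative Hmox1 is induced by stress. Cardiomyocytes are recognised by the proteins of the sarcomere, by the calcium store and its release channel, by a set of transcription factors that includes Nkx2-5, Gata4 and Tbx5, and by a very high content of mitochondria. Aortic endothelium is recognised by junction and adhesion proteins such as Pecam1 and Cdh5, by von Willebrand factor and by arterial genes such as the connexin Gja5, and the vessels of the trunk keep a code of Hox genes that cells of the heart ventricles lack.

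Between 26067147 and 30907132 estimated counts were available per knockout library. CPM (counts scaled to a common library size) were scaled by the trimmed mean of M-values (TMM), and a gene was called a differentially expressed gene (DEG) where the adjusted p of edgeR's quasi-likelihood test was at most 0.05 and the absolute log2 fold change at least 1. All fold changes are heart over EC, so negative values mean higher in EC. Values are given in the order of libraries 1, 2 and 3.

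Hmox2 itself was low and alike in both knockout tissues. Heart KO libraries had 12.4, 10.5 and 11.01 CPM and EC KO libraries 10.2, 10.7 and 11.9 CPM, with overlapping ranges (log2 fold change 0.05, SE 0.14, adjusted p = 0.779). On a scale set over all 13 libraries, Hmox2 was at 47.4 to 54.9 CPM in heart WT and at 48.7 to 57.7 CPM in EC WT, above all 6 knockout libraries, which lay between 9.40 and 11.3 CPM. Of the 31-base words in Hmox2 transcripts, 73.4% also occur in another gene, so part of the remaining counts could not be assigned to Hmox2 alone. The Y-linked helicase gene Ddx3y separated the EC KO libraries from each other: it was at 57.2, 51.7 and 71.8 CPM in heart KO, at 69.6 CPM in EC KO 1, but only at 0.837 CPM in the second and 0.745 CPM in the third aortic knockout library. Ddx3y was thus high in all 3 hearts and almost absent from those last aortic libraries. By this gene, neither of those aortas came from the mouse of a sequenced heart. Sex is then partly mixed with tissue in the knockout comparison. The tissue difference was therefore also fitted with the 3 hearts and EC KO 1 alone, a choice made after these values were seen.

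Hearts and ECs of Hmox2-/- mice remained far apart in their RNA. Of 15114 genes tested, 7195 (47.6%) were DEGs, of which 3119 (20.6% of all genes) were higher in heart and 4076 (27.0%) higher in EC. The libraries of both tissues did not overlap for 7152 of the DEGs, and they did not overlap for 75.9% of all genes tested. Across 15938 genes, log2 levels correlated at 0.978 to 0.985 between heart KO libraries, at 0.978 to 0.982 between EC KO libraries and at 0.753 to 0.768 between a heart KO and an EC KO library. Against other libraries, heart KO correlated at 0.941 to 0.970 with heart WT, and EC KO at 0.913 to 0.936 with EC WT. Each knockout library was thus closer to the same tissue of the other genotype than to the other tissue of its own. These correlations are across genes, which are not independent replicates. The 4-library fit gave 3041 and 3462 DEGs, but with EC KO 1 as its lone EC library it assumes that ECs vary like the hearts and holds no EC spread of its own. The split depended on the scaling: without TMM, on library size alone, 1776 genes were higher in heart and 6308 higher in EC, while the median of all genes moved from a log2 fold change of -0.08 to -0.75. Medians of gene lists are therefore given relative to the median of all genes.

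**Figure D1:**
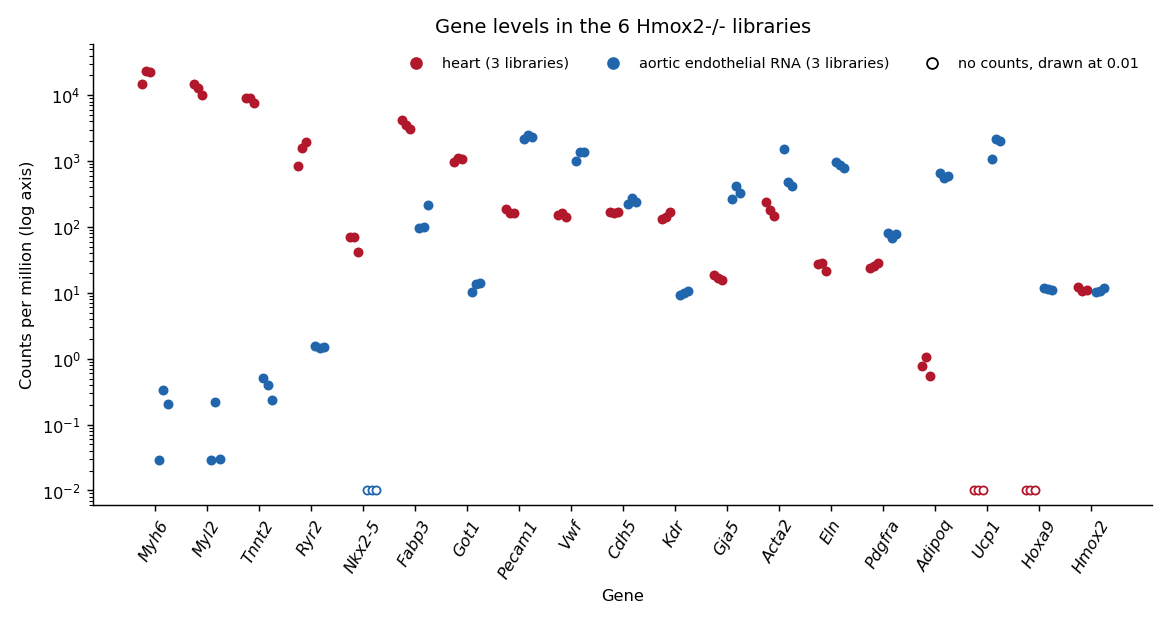
CPM on a log axis of 19 genes in the 3 heart KO libraries (red) and the 3 EC KO libraries (blue), with libraries without counts as open circles at 0.01. Sarcomere genes at the left span up to 17.04 log2 units between the tissues, Cdh5 and Hmox2 lie close together, and Ucp1 and Hoxa9 have no counts in the hearts.

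The contractile apparatus was the clearest mark of the hearts. All 34 sarcomere genes tested were higher in heart KO, where 20.6% of all genes were, with a median of 9.56 log2 units above the median of all genes. Together they took 8.40% to 8.99% of the counts of each heart KO library and 0.0376% to 0.065% of each EC KO library. Myl2, the regulatory light chain of ventricular myosin, was at 15048, 12856 and 9971 CPM in the hearts and at 0.0285, 0.217 and 0.0298 CPM in the ECs (log2 fold change 17.04, SE 0.59, adjusted p = 1.0e-07). Myl3, the essential light chain of the ventricle, was at 8998, 7121 and 5758 CPM in the hearts and at 0.0571, 0.155 and 0 CPM in the ECs. The libraries of the tissues did not overlap for either light chain.

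Myh6, the fast myosin heavy chain of the mouse heart, was at 14743, 23125 and 22923 CPM against 0.0285, 0.341 and 0.209 CPM, although 28.6% of its 31-base words are shared with another gene. Cardiac actin (Actc1) was at 13254, 13808 and 12730 CPM in the hearts and at 1.03, 0.713 and 3.49 CPM in the ECs. Cardiac troponin T (Tnnt2), which anchors the troponin complex to the thin filament, was at 9179.8, 8958 and 7592 CPM against 0.514, 0.403 and 0.238 CPM. The smallest difference in the list was that of Pdlim5, a Z-disc adaptor also used outside muscle, with 796, 686 and 682 CPM in the hearts and 71.4, 72.6 and 85.6 CPM in the ECs (log2 fold change 3.24, SE 0.15, adjusted p = 4.3e-07). Myoglobin (Mb), the oxygen store of heart muscle, was at 19138, 15839 and 13336 CPM in the hearts against 1.06, 0.496 and 2.44 CPM in the ECs. Among protein-coding heart DEGs without overlap and with under 20% shared 31-base words, which leaves out Myh6, its mean level was the highest.

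Promoters of 250 bases were given by RefSeq (GRCm38.p6) for 27 of the 34 sarcomere genes, and each motif searched stood in a minority of them. A MEF2 site stood in 6 of them (22.2%) and in 2.70% of the 11170 matched promoters among all genes tested. A CArG box, the site of serum response factor, stood in 4 (14.8%) and in 1.17% of the matched promoters. A GATA site (AGATAA) stood in 7 (25.9%, against 6.03%) and an M-CAT site (CATTCC) in 8 (29.6%, against 10.7%). The M-CAT letters were not particular to sarcomere genes. They also stood in 5 of 18 arterial endothelium promoters (27.8%) and 5 of 11 smooth muscle promoters (45.5%), but in 2 of 15 endothelial identity promoters (13.3%). No sarcomere promoter held an NRF1 site or the ETS site (ACAGGAAG) searched, which stood in 7.46% and 2.44% of the matched promoters. Both strands were searched, and a match is only a match of letters within this window. Among all DEGs higher in heart, 4.17% of 2301 promoters held the MEF2 letters and 1.48% the CArG box, and among DEGs higher in EC these shares were 2.17% and 1.23% of 2761. For the CArG box these were 34 genes on each side, and the DEGs higher in heart include the sarcomere genes counted above. Differences between the sides were not tested. The GATA letters stood in 6.35% of the promoters of DEGs higher in heart and 7.46% of those higher in EC. For the M-CAT letters these shares were 11.6% and 12%. The promoters of 4 genes whose levels are given here are shown, 5′ to 3′ and ending at the start site, with the CArG box of Actc1 (chr2:114052876-114053125, minus strand) and Myl3 (chr9:110763428-110763677, plus strand) and the MEF2 site of Mybpc3 (chr2:91117894-91118143, plus strand) and Myoz2 (chr3:123034988-123035237, minus strand) in capitals.
Actc1: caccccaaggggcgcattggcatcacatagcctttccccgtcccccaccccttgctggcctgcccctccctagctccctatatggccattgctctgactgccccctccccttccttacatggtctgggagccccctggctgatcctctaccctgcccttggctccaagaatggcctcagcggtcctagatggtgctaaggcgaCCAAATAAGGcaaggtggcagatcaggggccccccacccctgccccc
Myl3: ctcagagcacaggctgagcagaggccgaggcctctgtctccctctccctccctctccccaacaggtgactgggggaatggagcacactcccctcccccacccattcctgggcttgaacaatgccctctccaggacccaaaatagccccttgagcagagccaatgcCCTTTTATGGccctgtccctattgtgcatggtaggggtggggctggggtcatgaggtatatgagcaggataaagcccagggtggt
Mybpc3: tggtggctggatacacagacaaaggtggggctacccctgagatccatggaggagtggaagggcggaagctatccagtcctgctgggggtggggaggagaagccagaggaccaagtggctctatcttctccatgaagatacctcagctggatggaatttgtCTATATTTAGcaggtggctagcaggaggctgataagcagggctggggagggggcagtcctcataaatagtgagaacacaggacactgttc
Myoz2: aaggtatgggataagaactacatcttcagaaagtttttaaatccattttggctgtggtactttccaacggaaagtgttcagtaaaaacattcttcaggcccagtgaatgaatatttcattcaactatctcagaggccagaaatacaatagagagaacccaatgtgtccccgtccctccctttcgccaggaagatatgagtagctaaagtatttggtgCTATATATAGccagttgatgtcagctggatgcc
The CArG box of Actc1 lay 47 to 38 bases before the start and that of Myl3 85 to 76 bases before it. The MEF2 site of Mybpc3 lay 90 to 81 bases and that of Myoz2 33 to 24 bases before the start. Mybpc3, the myosin-binding protein of the thick filament, was at 4719, 5586 and 5177 CPM in heart KO and at 0.114, 0.186 and 0.119 CPM in EC KO. Myoz2, which ties calcineurin to the Z-disc, was at 1227, 1098 and 986 CPM against 1.37, 0.465 and 0.596 CPM.

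Calcium handling and excitation genes followed the same pattern. Of 17 calcium genes, 16 were higher in heart KO and 1 in EC KO, with a median of 5.96 above that of all genes. Casq2, which stores calcium in the sarcoplasmic reticulum, was at 2039.7, 1588 and 1462 CPM in the hearts and at 0.171, 0.155 and 0.298 CPM in the ECs. Ryr2, the calcium release channel, was at 858, 1589 and 1983 CPM in the hearts and at 1.54, 1.46 and 1.49 CPM in the ECs. Atp2a2, the pump that refills the store and is also made outside muscle, had 12405, 15228 and 16800 CPM in the hearts and still 112, 115 and 126 CPM in the ECs (log2 fold change 6.98, SE 0.27). The exception was Fkbp1b, a small regulator of the release channel, with 1.02, 0.634 and 1.39 CPM in the hearts and 5.08, 5.46 and 3.96 CPM in the ECs (log2 fold change -2.24, SE 0.32, adjusted p = 2.5e-04).

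Of 24 ion channel and connexin genes, 22 were higher in heart KO and 1 in EC KO (median 5.44). Kcnj3, a subunit of the atrial potassium current opened by acetylcholine, had 97.2, 104 and 123 CPM in the hearts and no counts in the ECs, which makes it at least 1209-fold higher in heart against a floor of 3 counts per library. Gja1, the connexin of the ventricle that ECs also use, was at 659.8, 671 and 771 CPM against 73.8, 105 and 100.2 CPM.

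Most cardiac transcription factors were higher in heart, and several were also present in the ECs. Of 29 listed, 2 were below the filter on low counts, 24 of the 27 tested were higher in heart KO and 1 was higher in EC KO (median 2.71). Nkx2-5 had 70.6, 71.0 and 41.7 CPM in the hearts and no counts in the ECs (at least 685-fold higher in heart), and Irx4, a factor of the ventricle, was likewise at least 391-fold higher. Gata4 was at 145, 150.3 and 131 CPM against 0.485, 0.217 and 0.209 CPM. Mef2a, a factor of muscle genes, had mean levels of 194 CPM in the hearts and 64.7 CPM in the ECs. Gata6, a factor of heart and vessel wall, was at 54.9, 65.3 and 61.0 CPM in the hearts and at 56.8, 55.7 and 48.3 CPM in the ECs, with overlapping libraries (log2 fold change 0.17, SE 0.12, adjusted p = 0.232; the sign turned under upper-quartile scaling and library size alone). Tbx18 did not pass either (log2 fold change -0.43, SE 0.22, adjusted p = 0.114). Isl1, known as a factor of the second heart field, had no counts in the hearts and 17.4, 24.0 and 16.7 CPM in the ECs, at least 155-fold higher in EC.

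Natriuretic and atrial genes were tested for 7 of 9 listed. The natriuretic peptide genes Nppa and Nppb, released by stretched heart muscle, were at 482, 353 and 253 CPM and at 478, 271 and 197 CPM in heart KO, and no EC KO library exceeded 0.536 CPM for either. The atrial light chains were low in the hearts and highest in heart KO 3. Myl7 was at 5.72, 5.70 and 18.6 CPM in the hearts and at 0, 0.961 and 0.149 CPM in the ECs, without overlap (log2 fold change 4.77, adjusted p = 0.00156). Myl4 was at 2.08, 2.49 and 18.6 CPM in the hearts and at 1.31, 2.01 and 1.76 CPM in the ECs. Myl4 was a DEG with all libraries (log2 fold change 2.19, SE 0.79, adjusted p = 0.0326) and not without heart KO 3 (0.45). The call was also lost when any EC KO library was left out (2.04 to 2.34), with upper-quartile scaling (1.92), with a replicate block (1.51) and on library size alone (1.54). Dkk3, a secreted protein with high levels in atria, was higher in EC KO, with 101, 81.3 and 98.5 CPM against 2.29, 7.64 and 12.1 CPM in heart KO.

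Genes of mitochondrial energy supply were higher in the hearts by a smaller margin. Of 72 nuclear subunits of oxidative phosphorylation, 68 were DEGs higher in heart KO and none in EC KO by edgeR (median 1.84), and the other 4 had log2 fold changes between 0.52 and 0.97. They took 4.02% to 5.42% of heart KO counts and 1.81% to 2.07% of EC KO counts. Atp5mc1, a copy of the ring subunit of ATP synthase, led the list with 2488, 1788 and 1401 CPM in the hearts against 31.8, 29.9 and 28.9 CPM in the ECs (log2 fold change 5.97, SE 0.27). Of the 72 subunit genes, 13 share at least 20% of their 31-base words with another gene.

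Of 21 citrate cycle and pyruvate dehydrogenase genes, 18 were higher in heart KO (median 1.65). The largest difference was that of Got1, the cytosolic aspartate aminotransferase of the malate-aspartate shuttle, with 984, 1108 and 1085 CPM in the hearts and 10.2, 13.7 and 14.0 CPM in the ECs (log2 fold change 6.39, SE 0.21). Its mitochondrial partner Got2 was at 1280.1, 1392 and 1312 CPM against 38.3, 39.5 and 36.2 CPM. Of 25 fatty acid oxidation genes only 10 passed, all higher in heart KO (median 0.98). Fabp3, the fatty acid carrier of heart muscle, was at 4195, 3534 and 3062 CPM in the hearts and at 94.9, 98.5 and 213 CPM in the ECs. Pdk4, the kinase that holds back pyruvate dehydrogenase, had the lowest value of that list and did not pass, with 177, 284 and 269.5 CPM in the hearts and 434, 373 and 453 CPM in the ECs (log2 fold change -0.79, SE 0.20, adjusted p = 0.006). On library size alone, the DEGs higher in heart fell to 42 subunits, 10 citrate cycle genes and 5 fatty acid oxidation genes, and without genes that share 31-base words the fatty acid oxidation list also kept 5.

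The 13 genes encoded in mitochondria did not follow the nuclear subunits. The 13 genes held 22.5% to 27.2% of the counts in heart KO and 24.1% to 30.9% in EC KO, ranges that overlap. Only mt-Nd5 and mt-Nd6, both of complex I, were DEGs, higher in heart KO, and none was higher in heart KO on library size alone or with upper-quartile scaling. mt-Nd5 was at 9844, 14960 and 18172 CPM in the hearts and at 4489, 8698 and 7214 CPM in the ECs (log2 fold change 1.07, SE 0.33, adjusted p = 0.0157), and its log2 fold change was under 1 without heart KO 3 (0.88) and without EC KO 1 (0.85). mt-Co1 was at 66169, 98825 and 103840 CPM against 50646, 71854 and 57158 CPM (log2 fold change 0.58, SE 0.32, adjusted p = 0.130; -0.08 on library size alone).

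**Figure D2:**
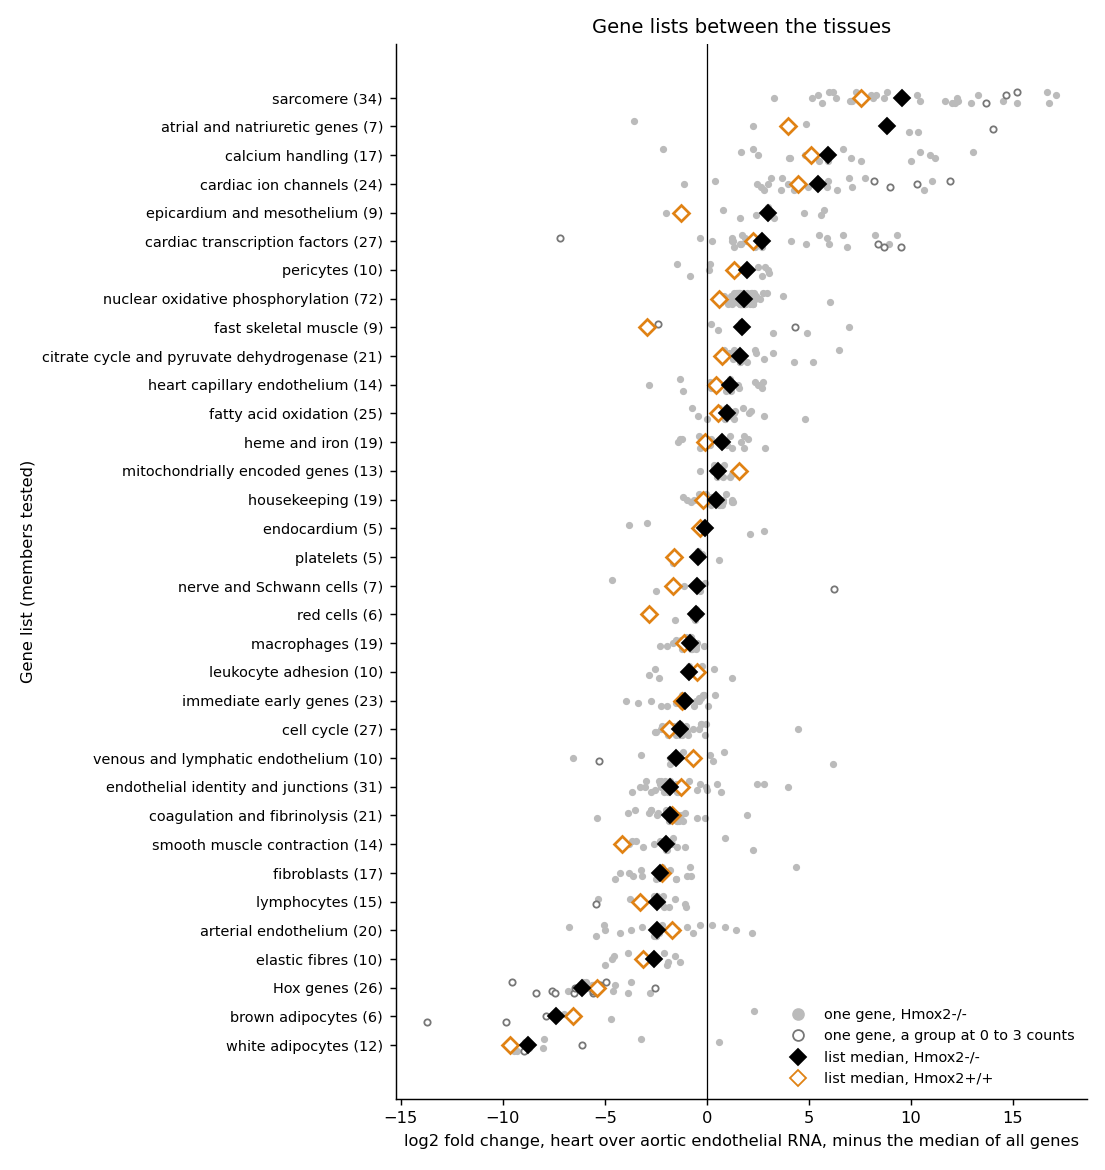
Log2 fold change of heart over EC minus the median of all genes for the tested members of 34 lists in Hmox2-/- mice (grey points; open points are genes with a group at 0 to 3 counts, drawn at their bound or count ratio), with list medians in Hmox2-/- (black) and Hmox2+/+ mice (orange). The sarcomere median is 9.56 in the knockout and 7.54 in the wild type, and the epicardial median lies on opposite sides of 0 in the genotypes.

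Pairs of genes were also compared, each with a form taken here as that of muscle and another form of the same or a closely related protein. In some pairs the other form is a gene of the vessel lists (Gata2, Gja4 and Lmod1). The share of a form within its pair does not depend on scaling between tissues. Many pair members, such as Myl3, Myh6, Actc1 and Atp2a2, also stand in the lists above, so the pairs are not independent of them. The share of the muscle form in the summed TPM (a unit that accounts for transcript length) was computed for 26 pairs, and in 25 every heart KO library lay above every EC KO library. In 18 pairs the muscle form held most of the sum in heart KO and the minority in EC KO. All 26 muscle forms were DEGs higher in heart, and of the other forms 13 were DEGs higher in EC and 4 higher in heart. Unlike the shares, these calls depend on the scaling. The muscle creatine kinase Ckm held 98.9% ± 0.0918 (SD, n = 3) of the pair with Ckb in heart KO and 0.422% ± 0.146 in EC KO. Cox6a2, the muscle form of a cytochrome oxidase subunit, held 92.7% ± 0.413 of the pair with Cox6a1 in heart KO and 0.0280% ± 0.0264 in EC KO.

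Contractile proteins and several metabolic ones are given as further pairs. Myosin light chain Myl3 held 97.2% ± 0.266 of its pair with Myl6 in heart KO and 0.0119% ± 0.0135 in EC KO. Desmin (Des), the intermediate filament of muscle, held 88.2% ± 1.75 of the pair with vimentin (Vim) in heart KO and 1.64% ± 0.438 in EC KO. The calcium pump Atp2a2 held 99.9% ± 0.00618 of the pair with Atp2a3 in heart KO and 28.0% ± 1.77 in EC KO. Cox7a1 was the majority form over Cox7a2 in both tissues, with 82.4% ± 2.22 in heart KO and 59.3% ± 5.49 in EC KO. The exception was hexokinase, where the muscle form Hk2 held 45.3% ± 1.09 in heart KO and 52.3% ± 4.67 in EC KO beside Hk1. Both hexokinases were higher in heart KO than in EC KO.

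**Figure D3:**
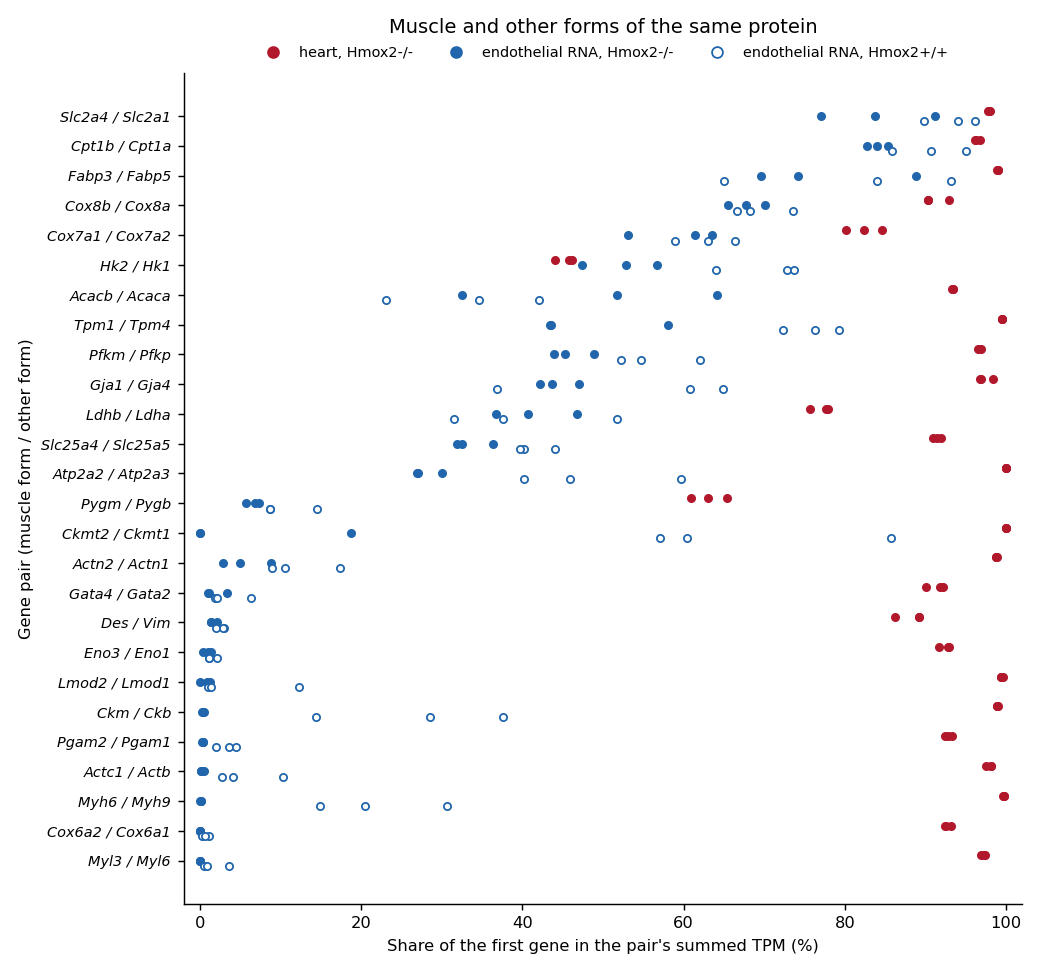
Share (%) of the muscle form in the summed TPM of 26 gene pairs in each heart KO library (red), EC KO library (filled blue) and EC WT library (open blue). Hexokinase is the pair in which heart KO does not lie above EC KO, and for Ckm with Ckb the EC WT libraries lie at 14.4% to 37.6% where EC KO lies under 0.574%.

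Endothelial genes were higher in the aortic libraries, with exceptions. Of 31 genes of endothelial identity and junctions, 21 were higher in EC KO (27.0% of all genes were) and 3 in heart KO, with a median of -1.82 relative to all genes. They took 0.933% to 1.11% of EC KO counts and 0.149% to 0.155% of heart KO counts. Pecam1, the adhesion protein of endothelial contacts, was at 2193, 2514 and 2304 CPM in the ECs and at 190.1, 165 and 160.4 CPM in the hearts (log2 fold change -3.77, SE 0.17, adjusted p = 3.4e-07). Vwf, the clotting factor stored in endothelial granules, was at 996, 1395 and 1387 CPM against 150.4, 164 and 144 CPM. Cdh5, the cadherin of endothelial junctions, did not pass, with 222, 275 and 241 CPM in the ECs and 171, 162 and 171 CPM in the hearts (log2 fold change -0.55, SE 0.13, adjusted p = 0.004).

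The endothelial genes that ran against the list were receptors of vascular growth and guidance. Kdr, the main receptor of vascular endothelial growth factor, was at 132, 142 and 166 CPM in heart KO and at 9.30, 9.80 and 10.7 CPM in EC KO (log2 fold change 3.88, SE 0.14, adjusted p = 1.3e-07). Flt1, its decoy receptor, was higher in heart KO by a log2 fold change of 2.70 (SE 0.16), and Robo4, a guidance receptor of endothelium, by 2.39 (SE 0.17). The angiopoietin receptor Tek was at 291, 349 and 309 CPM in the ECs against 56.1, 55.8 and 65.1 CPM in the hearts, so the receptors did not move as a group. Endothelial nitric oxide synthase (Nos3) was at 198, 232 and 277 CPM in the ECs against 32.6, 35.5 and 33.4 CPM.

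Genes of arterial endothelium marked the aortic libraries. Of 20 tested, 14 were higher in EC KO and 2 in heart KO (median -2.43). Gja5, the connexin of arterial ECs that atrial muscle also makes, was at 271, 416 and 329 CPM in the ECs and at 18.5, 16.6 and 15.6 CPM in the hearts. Klk10, a secreted protease of the kallikrein family, was at 56.9, 37.8 and 56.4 CPM in the ECs and did not exceed 0.613 CPM in the hearts (log2 fold change -6.85, SE 0.29). Cytl1, a small secreted protein, was at 1409, 1014 and 974.9 CPM in the ECs against 26.2, 30.2 and 18.98 CPM. The Notch ligand Jag2 and the Notch target Hey1 were higher in heart KO, with log2 fold changes of 2.14 (SE 0.30) and 1.37 (SE 0.23).

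Genes known from capillaries of the heart pointed to the heart in 8 of 14 cases and to the EC libraries in 3 (median 1.15). C1qtnf9, a secreted relative of adiponectin, was at 49.6, 35.7 and 35.5 CPM in the hearts and at 8.56, 5.92 and 4.86 CPM in the ECs. Cd36, the fatty acid transporter of capillaries, muscle and fat, was at 1713, 1709 and 2003 CPM in the hearts and at 605, 645 and 655 CPM in the ECs. Fabp4, a fatty acid carrier of capillary ECs and of adipocytes, was the member that ran most strongly against the list, with 2862, 2399 and 2491 CPM in the ECs and 455, 317 and 271 CPM in the hearts. On library size alone only 4 of the 14 were higher in heart KO.

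Of 10 venous and lymphatic genes, 6 were higher in EC KO and 1 in heart KO (median -1.495). P-selectin (Selp), which slows leukocytes on activated endothelium, was at 104, 127 and 115 CPM in the ECs and at 1.10, 0.929 and 1.43 CPM in the hearts (log2 fold change -6.64, SE 0.19). Prox1, the master factor of lymphatic ECs that heart muscle also makes, was at 50.7, 85.8 and 94.7 CPM in the hearts and at 1.34, 0.992 and 0.953 CPM in the ECs. Endocardial genes were split, with 2 of 5 higher in each tissue and a median of -0.08 whose sign turned without heart KO 1, without a filter on low counts and in the 4-library fit.

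Of 21 coagulation and fibrinolysis genes, 18 were higher in EC KO and 1 in heart KO (median -1.83). Procr, the endothelial receptor of protein C, was at 191, 244 and 201 CPM in the ECs and at 5.68, 4.60 and 3.88 CPM in the hearts. Thrombomodulin (Thbd), its partner in activating protein C, was at 174, 156 and 207 CPM against 66.0, 59.1 and 58.7 CPM. Tissue factor pathway inhibitor (Tfpi) was the exception, at 87.2, 82.9 and 96.7 CPM in the hearts and at 23.1, 27.0 and 22.9 CPM in the ECs. Of 10 leukocyte adhesion genes, 4 were higher in EC KO (27.0% of all genes were) and 1 in heart KO (20.6% were). The other 5 did not pass, and counts in so short a list are near the shares of all genes. Higher in EC KO were Vcam1 (227, 269 and 195 CPM in EC KO, 38.3, 26.3 and 26.9 CPM in heart KO) and Icam1 (87.7, 106 and 84.3 CPM against 25.6, 12.9 and 13.04 CPM).

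RNA of other cells stood beside the endothelial genes in the aortic libraries, and its part in the EC values was not tested. Of 14 smooth muscle genes, 12 were higher in EC KO and 1 in heart KO (median -1.996), and the list took 0.177% to 0.545% of EC KO counts and 0.0549% to 0.0675% of heart KO counts. Acta2, the actin of smooth muscle, was at 1536, 477 and 420.1 CPM in EC KO and at 238, 184 and 145 CPM in heart KO. EC KO 1 was thus the highest for this gene by a wide margin. Myh11, the smooth muscle myosin, was at 324, 103 and 93.2 CPM in EC KO against 53.1, 71.7 and 51.4 CPM in heart KO (log2 fold change -1.56, SE 0.45, adjusted p = 0.0121), and without EC KO 1 its log2 fold change was -0.75.

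Adipocyte genes were among the largest differences of all. Of 12 white adipocyte genes, 11 were higher in EC KO and none in heart KO by edgeR (median -8.77), and the list took 0.84% to 1.17% of EC KO counts and 0.00896% to 0.0165% of heart KO counts. The fat hormone Adipoq was at 655, 546 and 585 CPM in EC KO and at 0.777, 1.06 and 0.548 CPM in heart KO (log2 fold change -9.54, SE 0.26, adjusted p = 3.6e-08). Ucp1, the uncoupler of brown fat, was at 1079, 2194 and 2054 CPM in EC KO with no counts in heart KO, at least 14174-fold higher in EC. Of the 6 brown adipocyte genes tested, only the potassium channel gene Kcnk3 was higher in heart KO, at 276, 345 and 276 CPM against 63.2, 61.0 and 65.9 CPM.

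Matrix genes also lay with the aorta. Of 17 fibroblast genes, 14 were higher in EC KO and 1 in heart KO (median -2.29), and all 10 elastic fibre genes were higher in EC KO (median -2.61). Col1a1, the chain of type I collagen, was at 626, 699 and 679 CPM in EC KO against 53.6, 52.2 and 48.1 CPM in heart KO. Elastin (Eln) was at 962, 882 and 786 CPM in EC KO against 27.7, 28.2 and 21.4 CPM in heart KO (log2 fold change -5.09, SE 0.19). Tcf21, a factor of fibroblasts that arise from the epicardium, was higher in heart KO at 6.75, 5.41 and 4.68 CPM against 0.314, 0.403 and 0.119 CPM. Pericyte genes lay with the heart, 6 of 10 higher there and 1 in EC KO (median 1.96), led by Rgs5, a regulator of G-protein signals, at 512, 380.4 and 480.1 CPM in heart KO and 77.0, 47.1 and 48.8 CPM in EC KO.

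Blood and immune genes were higher in the aortic libraries or did not pass. Of 15 lymphocyte genes, 12 were higher in EC KO (7 passed in the 4-library fit, which has no EC spread), and of 19 macrophage genes 9 were higher in EC KO, 18 on library size alone and 14 with upper-quartile scaling. Of 6 red cell genes only Slc4a1, the anion exchanger of the red cell membrane, was a DEG, and it did not pass without EC KO 3 (-0.94), heart KO 1 (-1.45) or heart KO 2 (-1.41). The beta globin gene Hbb-bs was at 951, 629 and 536 CPM in heart KO and at 1170.2, 623 and 1031 CPM in EC KO, with overlapping libraries (log2 fold change -0.42, SE 0.28, adjusted p = 0.216). Of 5 platelet genes 1 was higher in EC KO. Of 7 nerve genes 3 were higher in EC KO, while Dbh, the enzyme that makes noradrenaline, had 7.32, 7.69 and 4.22 CPM in heart KO and no counts in EC KO, at least 71.8-fold higher in heart.

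**Figure D4:**
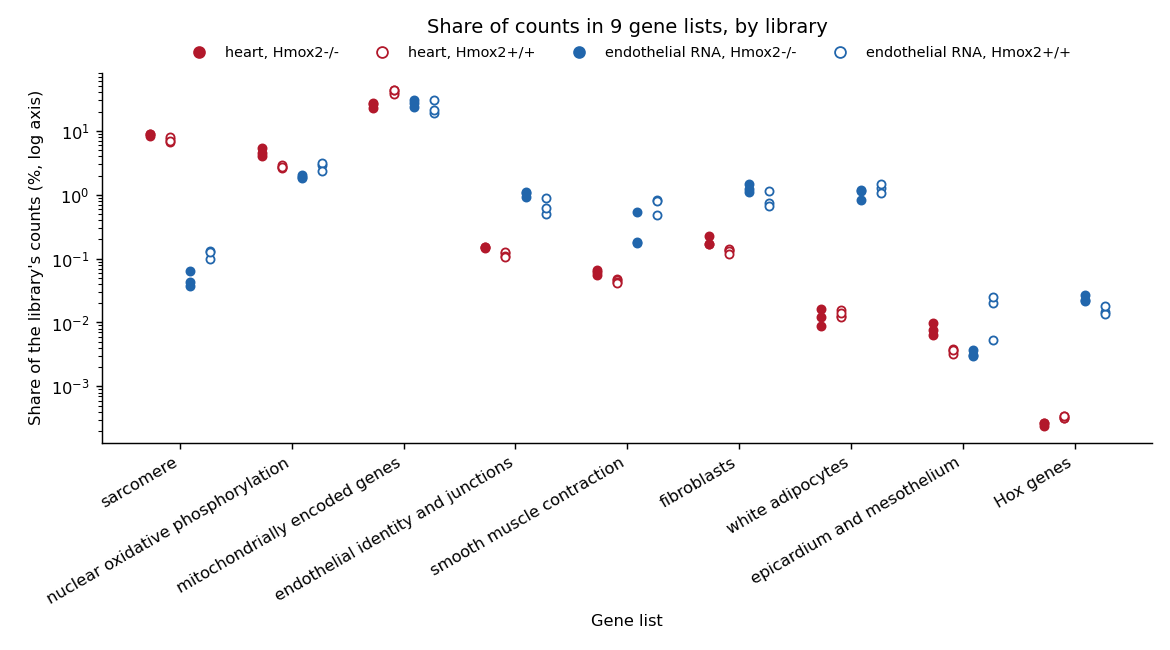
Share (%, log axis) of each library's counts in 9 gene lists for heart (red) and EC (blue) libraries of Hmox2-/- (filled) and Hmox2+/+ (open) mice. Sarcomere genes take 8.40% to 8.99% of heart KO counts and at most 0.065% of EC KO counts, and white adipocyte genes take at most 0.0165% of heart KO counts.

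Hox genes, which mark position along the body axis, had counts almost only in the aortic libraries. Of 39 Hox genes listed, 13 were below the filter and all 26 tested were higher in EC KO (median -6.11, or -5.59 with genes at 0 to 3 counts in the hearts set to their bound or count ratio). All 39 together took 2.42e-04% to 2.66e-04% of heart KO counts and 0.0220% to 0.0271% of EC KO counts. At such heart levels a Hox gene could hardly pass the filter except through its EC counts. The direction of the 26 was therefore largely set by the filter and is no separate result. Hoxa9 was at 11.9, 11.6 and 11.2 CPM and Hoxb9 at 10.6, 9.11 and 11.1 CPM in the ECs with no counts in the hearts, at least 92.2-fold and 81.8-fold higher in EC. The smallest difference was that of Hoxd9, with 2.74, 1.27 and 2.26 CPM in the ECs and 0.164, 0.253 and 0.422 CPM in the hearts.

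Cell state genes gave a mixed picture. Of 27 cell cycle genes, 19 were higher in EC KO and 1 in heart KO (median -1.29). In the 4-library fit, which has no EC spread, 7 passed as higher in EC. Mki67, a mark of dividing cells, was at 2.80, 5.24 and 10.3 CPM in EC KO and at 0.818, 2.20 and 1.56 CPM in heart KO, so the libraries did not overlap but the EC KO libraries differed widely among themselves. Cenpf, a kinetochore protein, was the exception, at 26.9, 30.03 and 39.8 CPM in heart KO against 1.23, 1.18 and 2.26 CPM in EC KO. Of 23 immediate early genes, 13 were higher in EC KO and none in heart KO by edgeR (median -1.06).

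Of 19 genes of heme and iron handling, 7 were higher in heart KO and 3 in EC KO (median 0.72). The transferrin receptor Tfrc, which brings iron into cells, was at 126, 104 and 122 CPM in heart KO and at 12.2, 23.9 and 14.6 CPM in EC KO (log2 fold change 2.80, SE 0.25, adjusted p = 1.4e-05). The last enzymes of heme synthesis pointed the same way, with Fech at 184, 187 and 202 CPM in heart KO against 53.1, 60.9 and 55.8 CPM in EC KO, and Cpox higher in heart KO by a log2 fold change of 1.94 (SE 0.11). The ferritin light chain gene Ftl1, the biliverdin reductase Blvrb and the heme exporter Flvcr1 were higher in EC KO, with log2 fold changes of -1.41, -1.32 and -1.51. Hmox1, the inducible heme oxygenase, did not pass, at 17.2, 35.1 and 14.1 CPM in heart KO and at 20.3, 11.5 and 56.9 CPM in EC KO (log2 fold change -0.42, SE 0.55, adjusted p = 0.518), and without EC KO 3 its log2 fold change was 0.46. Of 19 housekeeping genes 3 were higher in heart KO and 2 in EC KO (median 0.45).

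The largest differences over all genes follow. Among genes that had at least 10 CPM, did not overlap and shared few words, the mitochondrial creatine kinase Ckmt2 led the heart side, with 2761, 3011 and 2733 CPM in heart KO and 1 count in all EC KO libraries together, a ratio of 2.86e+05 (95% counting interval 51329 to 1.13e+07). Lrrc10, a cardiac leucine-rich repeat protein, was at least 2852-fold higher in heart and Hhatl at least 1545-fold. Eef1a2, the elongation factor of heart, muscle and neurons, was at 1493, 1620 and 1407 CPM against 0.0571, 0.0620 and 0.0298 CPM. On the EC side stood Ucp1 and Adra2a, an adrenergic receptor that restrains fat breakdown, which was at least 271-fold higher in EC, while the patterning factor Pax1 was at least 125-fold and Nkx2-3 at least 104-fold higher. Among abundant EC genes, the matrix proteoglycan Bgn was at 2422, 2576 and 2232 CPM in EC KO against 208, 193 and 171 CPM in heart KO, and the endothelial phosphatase Ptprb at 976, 1659.5 and 1548 CPM against 108, 125 and 175 CPM.

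The same comparison in Hmox2+/+ mice gave a like division of genes. There 14777 genes were tested and 5848 (39.6%) were DEGs, 2506 higher in heart WT and 3342 higher in EC WT. Among 14328 genes tested in both genotypes, 4306 were DEGs in the same direction, which is 66.0% of the 6529 knockout DEGs and 76.7% of the 5613 wild-type DEGs. In opposite directions were 94. Across these genes the log2 fold changes of both genotypes correlated at 0.857, given as a description. Of lists with wild-type values, the 34 sarcomere genes were all higher in heart in both genotypes, and 24 of the 24 Hox genes tested in both were higher in EC in both. For the Hox genes this direction was largely set by the filter, which they could hardly pass except through EC counts.

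The difference between tissues itself differed between genotypes for part of the genes. In a tissue by genotype test over all 13 libraries, 2456 of 15938 genes (15.4%) passed, 1288 with a heart over EC difference that was larger (more positive) in the knockout and 1168 (7.33%) with one that was smaller. Of the 34 sarcomere genes, 24 were more positive in the knockout and 2 were less so. For Myl2, on the scale set over 13 libraries, EC WT libraries had 9.72, 88.5 and 22.8 CPM and EC KO libraries 0.0263, 0.199 and 0.0270 CPM, while heart WT libraries had 6991 to 7676 CPM and heart KO libraries 13713, 11743 and 9180 CPM. The log2 difference of heart over EC was 9.51 larger in the knockout (SE 1.04, adjusted p = 7.2e-05). The EC libraries of both genotypes did not overlap, and neither did the hearts. Of 9 fast skeletal muscle genes tested, 5 were higher in EC WT (22.6% of all genes were) and 1 in heart WT (17.0%). Of the 9, 6 were more positive in the knockout (8.08% of all genes were). They took 0.0117%, 0.0031% and 0.0145% of the counts of EC WT 1, 2 and 3, where sarcomere genes took 0.0991%, 0.131% and 0.126%. EC WT 2 was thus the lowest for the skeletal list and the highest for the sarcomere list. The part of cardiac or skeletal muscle RNA in the EC WT libraries was not tested.

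Nuclear oxidative phosphorylation genes shifted as a group. In the wild type 9 of 72 were DEGs higher in heart (median 0.58 relative to all genes), in the knockout 68 (median 1.84), and 51 passed the tissue by genotype test, all more positive in the knockout, where 8.08% of all genes did so. They took 2.61% to 2.91% of heart WT counts, 2.35% to 3.13% of EC WT counts, 4.02% to 5.42% of heart KO counts and 1.81% to 2.07% of EC KO counts. The mitochondrially encoded genes shifted the other way: all 13 were higher in heart WT (median 1.55), 2 in heart KO (median 0.53), and 6 were less positive in the knockout. Their share of counts was 37.6% to 44.3% in heart WT, 19.4% to 30.7% in EC WT, 22.5% to 27.2% in heart KO and 24.1% to 30.9% in EC KO. Shares of a library's counts depend on each other, and a smaller mitochondrially encoded share raises all nuclear ones. Housekeeping genes took 0.333% to 0.396% of heart WT and 0.514% to 0.546% of heart KO counts. In EC WT they took 0.613% to 0.678%, and in EC KO 0.552% to 0.669%. The shares given here were not corrected for this. Of the 31 endothelial genes, 22 were DEGs in the same direction in both, and 1, Emcn, passed the tissue by genotype test. None of 20 arterial genes and none of 10 elastic fibre genes passed it by edgeR, where 15.4% of all genes did. With lists this short, none passing does not show that the tissue difference was kept.

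Several lists of other cells also passed the tissue by genotype test in large part. Of 14 smooth muscle genes, 11 were more positive in the knockout. Acta2 was at 2313, 1166 and 1752 CPM in EC WT and at 1418, 438 and 381 CPM in EC KO on the 13-library scale, with overlapping ranges, and its heart over EC log2 difference was 1.88 larger in the knockout, a difference that did not pass when any of EC WT 1, heart KO 1, EC KO 2 or EC KO 3 was left out (1.57 to 1.69). All 6 red cell genes were higher in EC WT than in heart WT, and all 6 were more positive in the knockout. Of 9 epicardial and mesothelial genes, 7 were higher in heart KO, 6 were higher in EC WT, and 8 passed the tissue by genotype test. Upk3b, a membrane protein of mesothelium and the gene with the largest such change of the list, was at 33.8, 46.9 and 26.3 CPM in heart KO and at 0.764, 0.484 and 1.05 CPM in EC KO, but at 12.5 to 16.4 CPM in heart WT and at 13.1, 55.6 and 62.5 CPM in EC WT. It was a DEG in opposite directions, higher in heart KO and higher in EC WT.

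**Figure D5:**
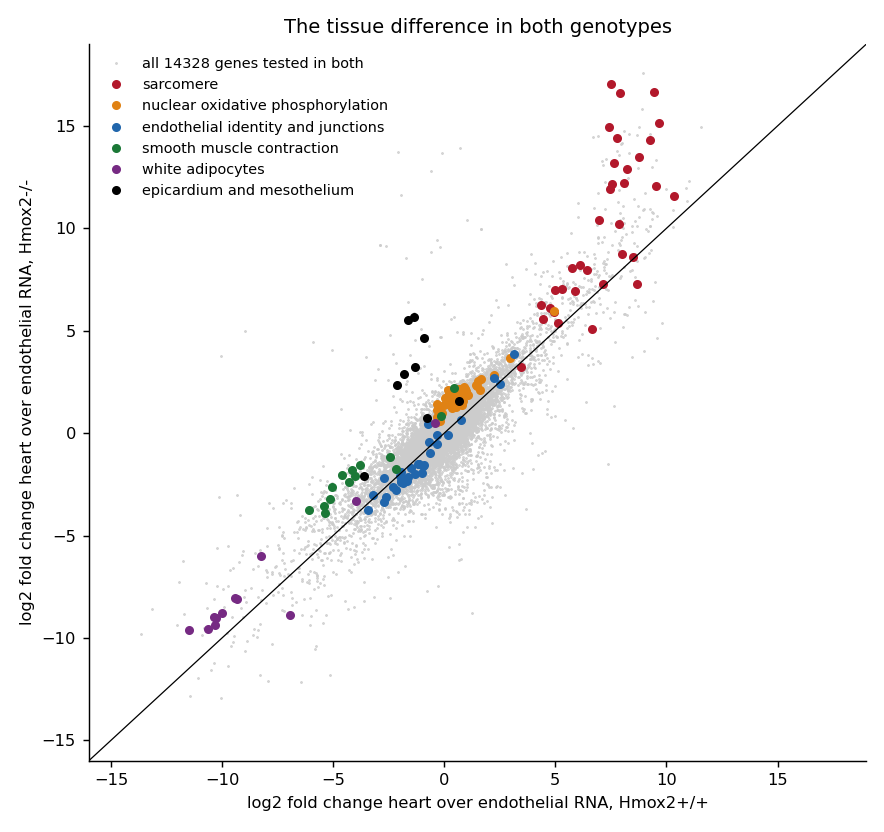
Log2 fold change of heart over EC in Hmox2+/+ (x axis) and Hmox2-/- mice (y axis) for 14328 genes tested in both (grey), with 6 lists in colour and the line of equal values; fitted values of genes with a group near 0 counts depend on a small added count. Most sarcomere genes lie above the line, white adipocyte genes near it at the lower left, and 7 epicardial genes lie left of 0 on the x axis and above 0 on the y axis.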

How the data were processed

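RNA-seq was available for 13 mouse libraries. The authors deposited kallisto 0.44.0 output per transcript, with estimated counts and TPM. The study's methods name a GENCODE mouse index, while the submitters' processing notes list other builds, so no coordinate was taken from the files. The deposited estimated counts were summed per gene by stable transcript identifier (97.2% of transcripts matched GENCODE M39) and rounded; the deposited TPM values were summed per gene for the isoform pairs only. Genes passed edgeR 4.0.16 filterByExpr with a minimum count of 10, TMM scaling and the quasi-likelihood F-test in R 4.3.3, with Benjamini-Hochberg adjustment over all genes tested. The knockout fit used 6 libraries, the wild-type fit 7 and the tissue by genotype fit 13. Genes with a group at 0 are given as bounds against 3 counts per library, and ratios with few counts carry 95% intervals that cover counting error only. Named genes were Hmox2, Ddx3y, the extremes, the highest level and the exceptions of each list, the 10 largest and 10 most abundant DEGs per direction and the 10 largest tissue by genotype differences per direction; Myoz2, Mef2a, mt-Nd6 and Emcn were added after their values were seen. Some genes that the rule selects are not reported here. The members and the gene lists were chosen with earlier results of these data known. Scripts were tested on simulated counts. Alternatives were DESeq2 1.42.0, other scalings, filters, gene sets and leaving out each library.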

Additional observations from a re-analysis of the deposited data

Results flagged for a closer look

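In the tissue by genotype test of edgeR, 1288 genes had a larger and 1168 a smaller heart over EC log2 difference in the knockout. Among named genes, the knockout minus wild-type difference was 9.51 for Myl2, 8.62 for Myl3, 8.60 for Ckmt2, 7.59 for Strit1, 7.49 for Csrp3, 7.46 for Fitm1, 7.13 for Upk3b, 6.79 for Lrrc10 and 6.64 for Eef1a2. It was -7.32 for Ptprn2, -6.60 for Pax1, -6.35 for Wdr41, -5.72 for Adh7, -4.83 for Vmn2r76, -4.65 for Gcnt1, -4.64 for Vmn1r55, -3.79 for Hoxb6, -3.34 for Sfrp4 and -3.33 for Spaca6. It was 7.16 for Myl7, 4.35 for Myl4, 1.88 for Acta2 and 3.06 for Tcf21. Strit1 did not pass with a replicate block (7.45), without EC WT 2 (3.53), or without heart WT 1, heart WT 2, heart WT 4 or any EC KO library (7.53 to 7.69). Hoxb6 did not pass without heart WT 2 (-2.82), heart WT 3 (-3.71), heart KO 1 (-3.32) or heart KO 2 (-3.34). Fitted values of genes with a group near 0 counts depend on the prior count. A heart WT library stood apart from the other 3 in its total of 7268626 estimated counts, and heart WT also held a library that stood apart in Csrp3 (913 CPM), Wdr41 (5.74 CPM) and Vmn2r76 (7.57 CPM). Chance marks about 1 in 20 groups in this way.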

How the results depend on the processing

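Of the counts of DEGs, 122 of 124 stayed within 1.5 times their value, and the exceptions were on library size alone, with 1776 genes higher in heart and 6308 higher in EC. Leaving out 1 library gave 3096 to 3208 and 3967 to 4270 DEGs in the knockout. Signs turned for Hmox2 with upper-quartile scaling (-0.21), on library size alone (-0.62) and when 1 library was left out (-0.0080 without heart KO 1 to 0.11 without heart KO 2), for Gata6 with upper-quartile scaling (-0.087) and on library size alone (-0.49), for mt-Co1 on library size alone (-0.077), for Emcn on library size alone (-0.23), for Ddx3y in the fit with EC KO 1 alone (-0.22), and for Hmox1 in that fit (0.11) and when 1 library was left out (-0.90 to 0.46, the highest without EC KO 3). The endocardial median turned to 0.226 without a filter, 0.0813 in the fit with EC KO 1 alone (a lone EC library assumed to vary like the hearts) and lay between -0.16 and 0.110 when 1 library was left out, the highest without heart KO 1. The causes were not tested. Same-numbered heart KO and EC KO libraries deviated together at r of 0.084, -0.048 and 0.156, and differently numbered ones at -0.144 to 0.048. Such weak values among so few libraries cannot say which came from the same mouse. By Ddx3y, only EC KO 1 can share a mouse with a heart KO library. A replicate block in the knockout is therefore not a block by mouse. A replicate block gave 3108 and 3999 DEGs in the knockout, 2476 and 3171 in the wild type, and 1205 and 1002 in the tissue by genotype test. Levels near 0 are limited by depth.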
